A study of Mus musculus with 11 samples.

Results

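The genes described here are 10 germline genes: Dazl, Ddx4, Mael, Asz1, Tdrd1, Sycp1, Sycp3, Hormad1, Stk31 and Slc25a31. They were chosen with earlier results of these data known, so shares of all promoters set beside them are descriptions. They are 10 of 21631 protein-coding genes on chromosomes 1 to 19 and X. Each was read over its body and 2000 bp on both sides, and its promoter was taken as the 1000 bp on either side of the gene end with more CpGs (GRCm38). At all 10 genes that end was the side of the annotated start, as it was at 79.7% of the 17274 genes where this could be compared. The genes were listed as silenced by promoter methylation, but RNA was not measured here and the promoter levels were intermediate in the deepest library, so they are called the listed germline genes below.

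Germline genes encode proteins of the meiotic chromosome, of germ granules and of the piRNA pathway that holds transposons in check. Many have a CpG-dense promoter that is free of DNA methylation in germ cells and gains methylation in somatic lineages. In embryonic stem cells, E2F6 and the E-box binding pair MAX and MGA recruit a variant Polycomb complex and histone methyltransferases to such promoters, and DNA methyltransferases add a further layer.

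The cells were the mouse embryonic stem cell line E14, of 129/Ola background, grown with fetal bovine serum and leukemia inhibitory factor and given no other treatment. CUT&Tag-BS uses an antibody to direct a Tn5 transposase with methylated adapters to chromatin carrying a histone mark, and the released fragments are bisulfite converted, so each read reports DNA methylation on chromatin cut near that mark. Antibodies against H3K4me1 (found at enhancers and beside active promoters), H3K9me3 (found in heterochromatin) and H3K27me3 (laid down by Polycomb) were each used on 250000 cells, and H3K27me3 also on 4000, 20000 and 100000 cells. The 11 samples were 8 bisulfite libraries, of which H3K4me1 and H3K9me3 had a run of 35 bp and a run of 75 bp reads each, and 3 controls without bisulfite, 1 a mark.

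Calls on chromosomes 1 to 19 and X numbered 4915289 (run 1) and 9684591 (run 2) for H3K4me1, 1997957 and 6301370 for H3K9me3, and from 377316 (4000 cells) to 37159887 (250000 cells) for H3K27me3. At CpGs called once in each run, both runs gave the same state in 97.6% (H3K4me1) and 95.9% (H3K9me3) of cases, against 80.2% between the H3K27me3 libraries from 100000 and 250000 cells. The runs of a mark were therefore counted as 1 library, and the deeper run 2 was used. With 1 library per mark and cell number there was no replicate error, and calls on one fragment or on amplified copies are not independent. Intervals (95% Wilson) and p-values therefore cover counting error only, and treat such calls as independent. Of 7 stem cell genes read as a check of the line, 6 had a promoter level under 20%. The exception was Esrrb at 78.9% of 237 calls. Of 7 genes of other cells, 4 of the 6 with enough calls were also under 20%, so these levels do not tell cell types apart.

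The promoter sequences are shown first because they carry the CpGs measured below and because most share a short motif. Each line gives the 250 bases before the RefSeq start, in the direction of transcription (GRCm38.p6). The stretches lie at chr17:50293621-50293870, minus strand (Dazl), chr1:166238745-166238994, minus strand (Mael), chr10:88459337-88459586, plus strand (Sycp3), chr3:95559427-95559676, plus strand (Hormad1), and chr3:40708621-40708870, plus strand (Slc25a31). Capitals mark the E-box CACGTG, the same on both strands, and the E2F core TCCCGC, which reads GCGGGA where it lies on the other strand.
Dazl: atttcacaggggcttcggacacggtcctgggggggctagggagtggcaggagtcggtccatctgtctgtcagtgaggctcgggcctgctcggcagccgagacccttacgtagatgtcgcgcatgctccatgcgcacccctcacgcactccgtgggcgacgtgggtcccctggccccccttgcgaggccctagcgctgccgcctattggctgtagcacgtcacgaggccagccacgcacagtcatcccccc
Mael: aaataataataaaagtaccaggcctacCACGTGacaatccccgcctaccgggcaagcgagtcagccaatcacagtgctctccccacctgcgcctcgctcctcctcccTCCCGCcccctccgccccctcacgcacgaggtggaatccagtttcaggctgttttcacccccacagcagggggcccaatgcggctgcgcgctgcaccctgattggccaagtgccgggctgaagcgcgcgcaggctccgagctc
Sycp3: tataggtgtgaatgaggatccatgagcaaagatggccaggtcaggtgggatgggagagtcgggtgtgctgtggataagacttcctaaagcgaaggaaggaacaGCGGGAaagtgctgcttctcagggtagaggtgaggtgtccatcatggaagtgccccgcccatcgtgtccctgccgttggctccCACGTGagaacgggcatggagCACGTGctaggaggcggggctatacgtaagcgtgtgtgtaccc
Hormad1: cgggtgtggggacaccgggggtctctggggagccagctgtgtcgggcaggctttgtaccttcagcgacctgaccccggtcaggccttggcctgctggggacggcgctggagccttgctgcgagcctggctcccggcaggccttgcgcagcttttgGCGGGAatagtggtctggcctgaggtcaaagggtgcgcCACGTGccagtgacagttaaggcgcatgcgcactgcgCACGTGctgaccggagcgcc
Slc25a31: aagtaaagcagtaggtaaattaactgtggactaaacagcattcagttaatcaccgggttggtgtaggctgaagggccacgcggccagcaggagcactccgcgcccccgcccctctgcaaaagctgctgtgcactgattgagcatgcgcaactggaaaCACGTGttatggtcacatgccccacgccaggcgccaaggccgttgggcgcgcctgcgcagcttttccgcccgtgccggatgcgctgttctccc
In windows of 300 bases, 250 before and 50 after the start, CACGTG was found in 8 of the 10 genes (all but Dazl and Asz1) and in 7.91% of 21045 promoters. TCCCGC was found in 6 of the 10 (Ddx4, Mael, Sycp1, Sycp3, Slc25a31 and Hormad1) and in 26% of promoters, and the same 6 genes held both, against 2.69% of promoters. Sycp3 and Hormad1 each held 2 E-boxes. These matches describe the letters only.

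In the deepest library, H3K27me3 from 250000 cells, all 10 promoters were methylated at an intermediate level. Their levels ran from 21.7% (Stk31) to 69.1% (Slc25a31), and all 10 lay between 20 and 80%, a range that held 18.7% of the 15083 promoters with at least 10 calls and 8.52% of those with at least 50 CpGs. All 10 were at or above 20%, as were 8.99% of the CpG-dense promoters, those with at least 50 CpGs. The median over the 10 was 46.3%, against 5.95% over all promoters. Levels of at least 50% were seen at 3 of 10 genes (Slc25a31, Hormad1 and Mael), against 17.6% of all promoters and 1.68% of CpG-dense ones. In the H3K9me3 library 4 of 8 genes with at least 10 calls reached 50% (Slc25a31, Hormad1, Sycp1 and Dazl), against 21.7% of all and 4.59% of CpG-dense promoters. In the H3K4me1 library none of 6 did, against 5.27% and 1.07%. Several levels lay near this threshold. Among the genes counted, the interval held 50% at Mael for H3K27me3 (45.7 to 60.7%). For H3K9me3 it did so at Hormad1 (39.5 to 65.9%), Sycp1 (45.2 to 59.6%) and Dazl (44.4 to 57.3%). Among those not counted, it did so at Asz1 and Sycp3 for H3K27me3, Tdrd1 for H3K9me3 and Hormad1 for H3K4me1. Levels outside 20 to 80% were found in other libraries at Ddx4, Stk31, Slc25a31, Tdrd1 and Sycp1, and are given with each gene. Run 1, which is not given with each gene, had such levels at Dazl (12.5% of 16 calls, H3K4me1), Stk31 (17.4% of 23, H3K4me1) and Ddx4 (15.4% of 13, H3K9me3).

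**Figure D1:**
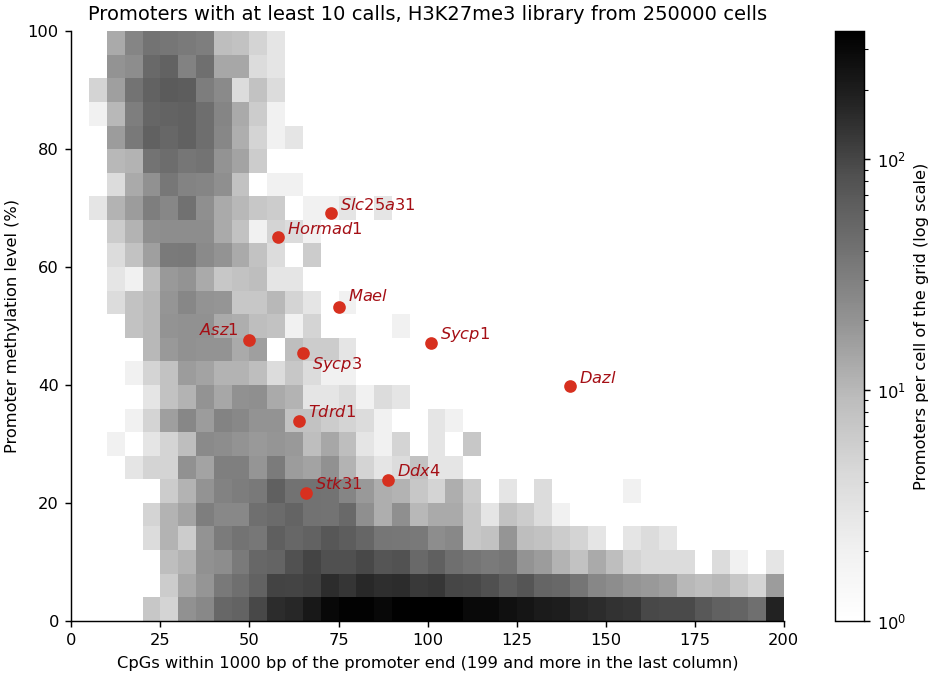
Promoter methylation level (vertical axis, %) against the number of CpGs in the promoter window (horizontal axis) for every promoter with at least 10 calls in the H3K27me3 library from 250000 cells, as a grid shaded by the number of promoters on a log scale, with the 10 germline genes as red points. The genes hold 50 to 140 CpGs and lie between 21.7 and 69.1%, while most promoters of that CpG number lie near 0.

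Among the germ cell RNA-binding proteins, Dazl (gene at chr17:50279393-50293620, promoter window chr17:50292620-50294620, 140 CpGs), a regulator of translation in germ cells, had 39.8% of 161 calls methylated in the H3K27me3 library from 250000 cells and 43.5% of 124 in that from 100000 cells. Its level was 50.9% of 228 calls for H3K9me3 and 22.9% of 35 for H3K4me1. A single average hides the shape of this promoter. Within 300 bp of the start, 67.3% of 52 calls were methylated for H3K27me3 and 81.6% of 76 for H3K9me3, but only 15.8% of 19 for H3K4me1. From 500 to 1000 bp into the gene, where the region holds 55 CpGs, the levels were 3.90% of 77 calls, 4.82% of 83 and 10% of 10. The Dazl start was thus methylated beside a CpG-rich stretch that was nearly free of methylation in the H3K27me3 and H3K9me3 libraries.

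Ddx4, the vasa RNA helicase of germ granules (chr13:112598333-112652633, promoter window chr13:112651633-112653633, 89 CpGs), had 23.9% of 1029 calls methylated in the H3K27me3 library from 250000 cells and 24.6% of 521 in that from 100000 cells. From 20000 cells it was lower, 13.6% of 199 (interval 9.49 to 19%). H3K9me3 gave 30.8% of 26 calls, and H3K4me1 had no call there. Its RefSeq start lies 323 bp inside the gene end, and the level was lowest around it, at 8.55% of 351 calls between 250 and 500 bp. Upstream the level was between 76.2% of 21 calls (the last 250 bp) and 100% of 22 calls (250 to 500 bp before the gene end), so the low stretch had an abrupt upstream edge.

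In the piRNA group, Mael, needed for transposon silencing in the male germline (chr1:166201385-166238744, window chr1:166237744-166239744, 75 CpGs), had 53.3% of 167 calls in the H3K27me3 library from 250000 cells and 58.0% of 131 in that from 100000. The library from 20000 cells gave 41.9% of 31. H3K9me3 gave 33.3% of 75 calls. The first 250 bp of the gene stood at 43.4% of 83 calls, against 89.5% of 19 between 500 and 1000 bp.

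Asz1, a germ granule protein of the same pathway (chr6:18050964-18109061, window chr6:18108061-18110061, 50 CpGs), was too thinly read for a firm value. It had 10 of 21 calls methylated (47.6%, interval 28.3 to 67.6%) in the H3K27me3 library from 250000 cells and 7 of 8 in that from 100000.

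Tdrd1, a Tudor protein that binds methylated Piwi proteins (chr19:56826171-56870012, window chr19:56825171-56827171, 64 CpGs), had 33.9% of 1492 calls in the library from 250000 cells, 30.8% of 942 in that from 100000 and 31.9% of 113 in that from 20000, with 8.33% of 12 from 4000. H3K9me3 gave 27.8% of 18 calls and H3K4me1 15.4% of 26. The low stretch was narrow: 18.0% of 683 calls in the first 250 bp, against 89.1% of 46 from 250 to 500 bp before the start and 83.7% of 104 from 500 to 1000 bp after it.

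Among the meiotic chromosome genes, Sycp1, the transverse filament of the synaptonemal complex (chr3:102818499-102936100, window chr3:102935100-102937100, 101 CpGs), was the most deeply read of the 10 in the H3K27me3 libraries. Its level was 47.2% of 1794 calls from 250000 cells, 47.2% of 1190 from 100000, 47.9% of 336 from 20000 and 18.4% of 38 from 4000. The first 3 values lay within 1 point of each other. H3K9me3 gave 52.5% of 181 calls and H3K4me1 27.6% of 29. The level differed across the start, from 69.8% of 179 calls in the last 250 bp before it to 52.2% of 609 and then 27.5% of 568 between 250 and 500 bp into the gene. Of its 94 CpGs with at least 5 calls, 61 lay between 20 and 80%, 14 below and 19 above. This was not the case at every gene. Between 20 and 80% lay 29 of 63 such CpGs at Tdrd1, 24 of 51 at Slc25a31 and 14 of 26 at Hormad1. At Ddx4 51 of 81 and at Stk31 21 of 32 lay under 20%.

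Sycp3, a protein of the axial and lateral elements (chr10:88459587-88473236, window chr10:88458587-88460587, 65 CpGs), had 45.5% of 77 calls in the H3K27me3 library from 250000 cells, 42.4% of 66 in that from 100000, 33.3% of 15 in that from 20000 and 25% of 112 for H3K4me1. Inside the gene, between 500 and 1000 bp, 6.67% of 15 calls were methylated.

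Hormad1, a HORMA domain protein of unsynapsed axes (chr3:95559677-95587863, window chr3:95558677-95560677, 58 CpGs), had 65.0% of 266 calls from 250000 cells, 60.4% of 222 from 100000 and 64.7% of 34 from 20000. H3K9me3 gave 52.9% of 51 calls and H3K4me1 45.5% of 77. The lowest stretch was the last 250 bp before the start, at 52.2% of 90 calls.

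Of the other genes, Stk31, a germ cell protein with a Tudor domain and a kinase-like domain (chr6:49395506-49469506, window chr6:49394506-49396506, 66 CpGs), had the lowest promoter level, 21.7% of 253 calls from 250000 cells. It was also the gene for which the H3K27me3 libraries from 100000 and 250000 cells differed most, among those with at least 10 calls in both. From 100000 cells it had 35.0% of 163 calls. From 20000 cells it was 12.5% of 24. H3K9me3 gave 9.76% of 41 calls and H3K4me1 31.0% of 42.

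Slc25a31, the germ cell ADP/ATP carrier of mitochondria (chr3:40708871-40726094, window chr3:40707871-40709871, 73 CpGs), had the highest, 69.1% of 547 calls from 250000 cells and 68.8% of 461 from 100000. From 20000 cells it was higher, 89.0% of 73 (interval 79.8 to 94.3%). H3K9me3 gave 70.8% of 48 calls. Its low stretch was the last 250 bp before the start, with 46.2% of 195 calls, between 92.0% of 87 calls upstream and 84.8% of 99 calls from 250 to 500 bp into the gene.

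In the order of the 10 levels from 250000 cells (Slc25a31, Hormad1, Mael, Asz1, Sycp1, Sycp3, Dazl, Tdrd1, Ddx4, Stk31), only Tdrd1 and Ddx4 were neighbours whose counting intervals did not overlap. Over the 9 genes other than Asz1, the level from 100000 cells differed from that from 250000 by at most 4.72 points at 8, the exception being Stk31 with 13.2.

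**Figure D2:**
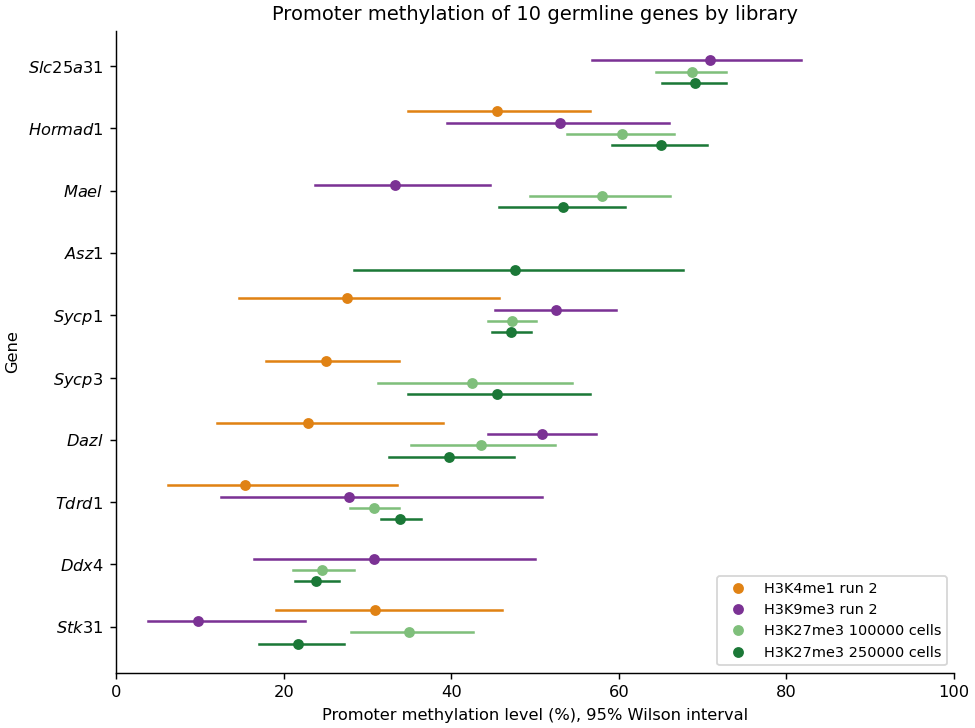
Promoter methylation level (horizontal axis, %) of each gene (vertical axis) in 4 libraries, shown where a gene had at least 10 calls, as points with 95% Wilson intervals. The H3K27me3 libraries from 100000 and 250000 cells (light and dark green) lie close together except at Stk31, and every gene lies above 20% in the library from 250000 cells.

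**Figure D3:**
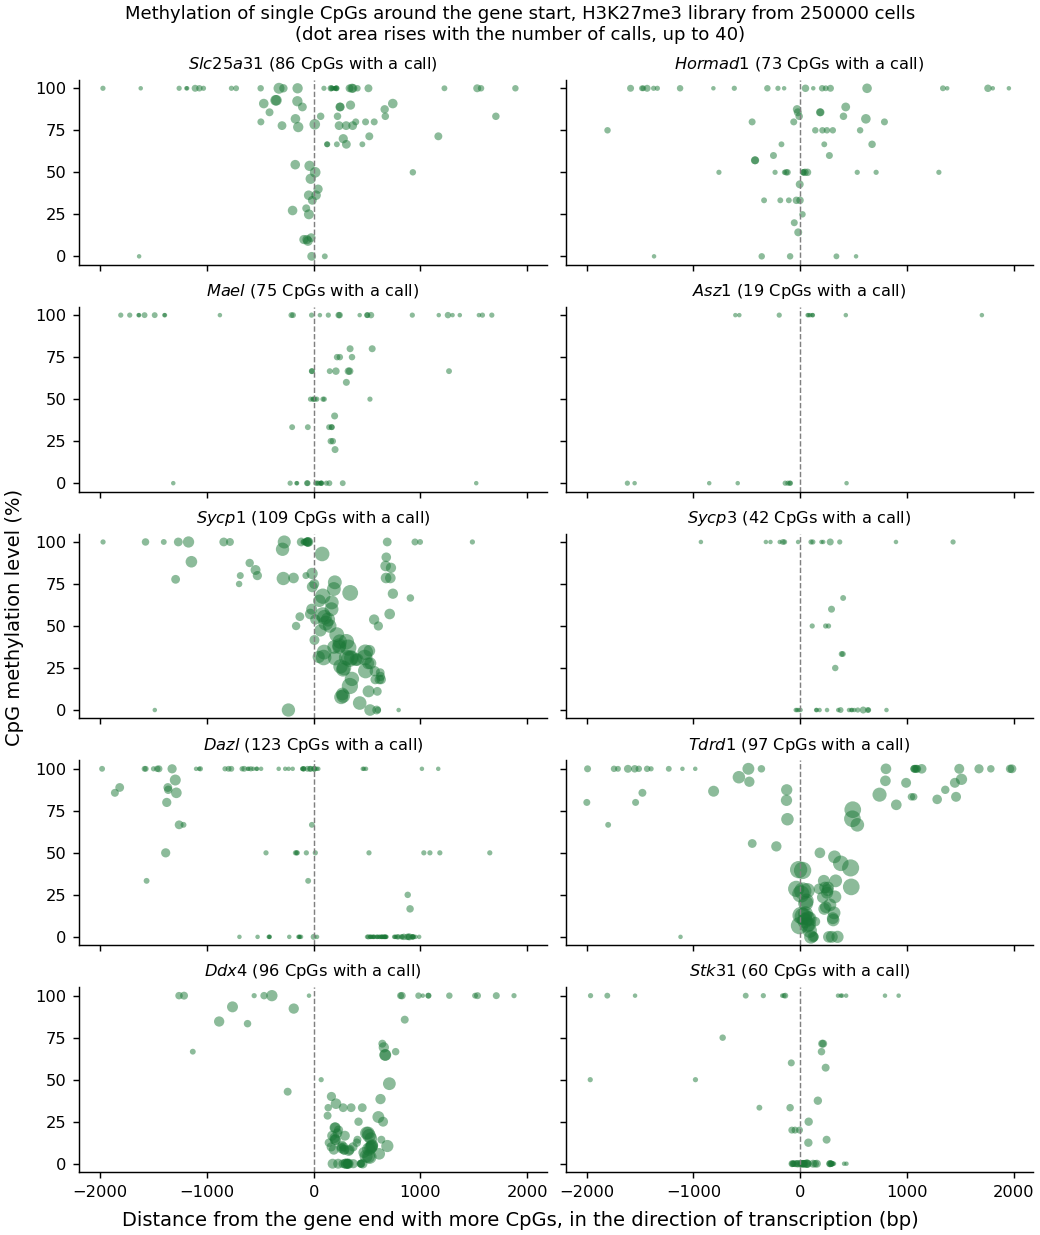
Methylation level (vertical axis, %) of each CpG with a call against its distance from the promoter end (horizontal axis, bp) in the H3K27me3 library from 250000 cells, 1 panel a gene, with dot area set by the number of calls. Low values gather at the start in Slc25a31, Tdrd1, Ddx4 and Stk31 and 500 to 1000 bp into the gene in Dazl.

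At several promoters the CpG inside the E-box was less methylated than the CpGs around it. Over the 8 genes with CACGTG, the CpG inside it was methylated in 12.8% of 86 calls (interval 7.29 to 21.5%) in the H3K27me3 library from 250000 cells, against 31.8% of 1781 calls (29.7 to 34.0%) at the other CpGs of the same 300 bases. The library from 100000 cells gave 12.7% of 63 calls against 31.9% of 1108. In the H3K9me3 library 1 of 10 calls was methylated, against 36.8% of 174, and in the H3K4me1 library 0 of 13, which allows up to 23.1%, against 31.4% of 121.

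Slc25a31 had 1 of 10 E-box calls methylated (interval 1.79 to 40.4%) against 49.1% of 234 (42.8 to 55.5%) in the library from 250000 cells. In that from 100000 it was again 1 of 10 (1.79 to 40.4%), against 42.9% of the other calls (33.8 to 52.4%), and these intervals overlap. Hormad1, with 2 E-boxes, had 2 of 12 calls methylated against 55.2% of 96, and 2 of 9 against 46.8% of 94. Tdrd1 had 5 of 41 against 25.3% of 616, and 0 of 25, which allows up to 12%, against 21.3% of 371. Tdrd1 gave 41 of the 86 E-box calls, and without it the levels were 13.3% of 45 calls (interval 6.26 to 26.2%) against 35.3% of 1165. From 100000 cells, leaving out Tdrd1 moved the E-box level to 21.1% of 38 calls (11.1 to 36.3%), an interval that overlaps that of the other CpGs (37.2%, 33.8 to 40.7%). At Ddx4 and Stk31 the surrounding CpGs were low as well: 0 of 11 E-box calls (which allows up to 27.3%) against 12.4% of 410 at Ddx4, and 0 of 6 (up to 50%) against 12.2% of 139 at Stk31. Sycp1 was an exception, with 3 of 3 calls methylated from 250000 cells and 2 of 7 from 100000, and Mael had 0 of 2 and 3 of 3.

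The difference was not seen at the E2F core, whose CpG stood at 39.5% of 43 calls against 37.5% of 1022 at the other CpGs of the 6 genes that hold it. From 250000 cells, CpGs 1 to 25 bp from the E-box CpG had 27.2% of 492 calls methylated, those at 26 to 50 bp 25.3% of 427, at 51 to 100 bp 35.7% of 563 and over 100 bp 41.5% of 299. For H3K9me3 the order was another, with 36.4% of 33, 48.5% of 33, 38.2% of 55 and 28.3% of 53. In the 53 other promoters that hold CACGTG and whose other CpGs lay between 20 and 80%, the E-box CpG had 28.5% of 698 calls methylated (25.3 to 32.0%) against 36.4% of 8093 (35.4 to 37.5%). Ddx4 and Stk31 would not have met that range. This comparison was chosen after the values of single CpGs had been seen, and it was not tested, since calls of one fragment are shared between CpGs.

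Promoters were less methylated than the rest of their genes at most members. Fisher's exact test, two-sided, compared the promoter calls with those of the rest of the gene and its flanks in the H3K27me3 library from 250000 cells, with Benjamini-Hochberg adjustment over 14456 promoters, and a call needed an adjusted p under 0.05 and a difference of at least 20 points. The promoter was lower at 7 of 9 listed genes, against 71.9% of all promoters, so the share is near the background. None was higher, against 4.78% of promoters. The differences of these 7 ran from -74.3 points at Stk31 (21.7% against 96.1% of 76 calls, exact test, adjusted p = 3.44e-33) to -20.0 at Hormad1 (65.0% against 85.1% of 67 calls, adjusted p = 0.00143). Ddx4 stood at -63.6 and Tdrd1 at -51.4 points. Sycp1 and Slc25a31, both at -18.5, passed the adjusted p (6.72e-08 and 4.49e-06) but not the 20 points, and Sycp3 was not tested because the rest of the gene had 2 calls. The median of the listed genes was -33.4 points and that of all promoters -48.8. With a window of 500 bp on each side the Dazl promoter stood 7.37 points above the rest of the gene, which was not called. The nearly unmethylated stretch inside the gene then leaves the promoter and counts to the rest. Sycp3 could be tested with that window and was called higher. Its rest of the gene, with 2 calls before, then took in the stretch from 500 to 1000 bp, where 1 of 15 calls was methylated. That call therefore rests on few calls close to the start and does not describe the gene body.

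**Figure D4:**
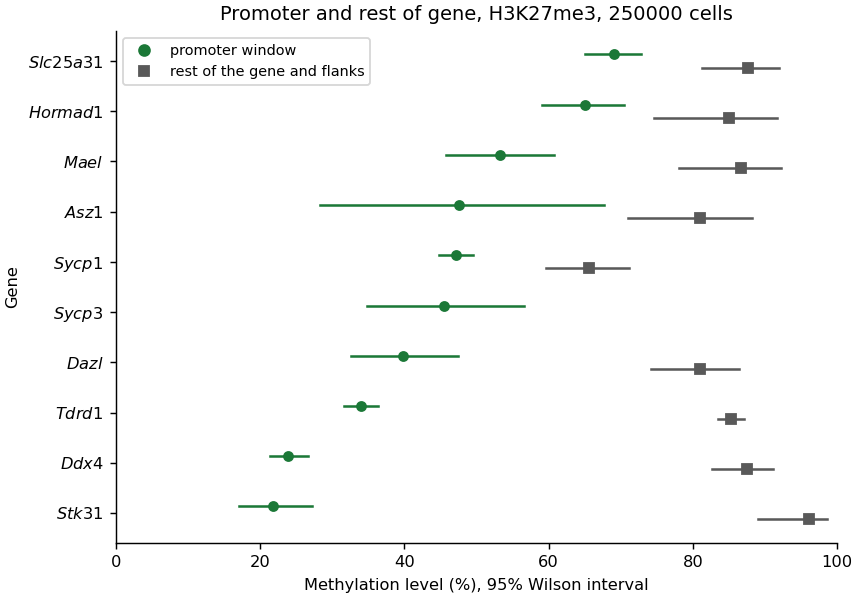
Methylation level (horizontal axis, %) of the promoter window (green circles) and of the rest of the gene with 2000 bp flanks (grey squares) for each gene (vertical axis) in the H3K27me3 library from 250000 cells, with 95% Wilson intervals. The rest lies between 65.6 and 96.1% in the 9 genes with at least 10 calls there, and the widest gap is at Stk31.

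Most of the listed genes lay in a peak of H3K27me3 at their promoter, and few or none in one of the other marks. A unified H3K27me3 peak overlapped the promoter window of 8 of 10 genes, all but Sycp3 and Asz1, against 29.4% of all promoters and 40.2% of CpG-dense ones. The peaks were 11508 bp wide at Tdrd1, 10097 at Ddx4, 6769 at Slc25a31, 5850 at Sycp1, 2231 at Hormad1, 1559 at Dazl, 1167 at Stk31 and 1001 at Mael. The Dazl peak lay upstream, at -2219 to -661 bp from the start, and did not cover the start.

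The count of peaks went with cell number and depth: 0 of 10 genes from 4000 cells (1.18% of all and 1.96% of CpG-dense promoters), 3 from 20000 (Ddx4, Sycp1 and Tdrd1; 19.14% and 29.3%), 6 from 100000 (25.3% and 36.2%), 7 from 250000 (26.6% and 37.5%) and 8 in the control without bisulfite (28.9% and 39.6%). The Mael peak was found only in that control. Cell number and depth cannot be told apart in this series.

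No H3K4me1 peak lay at any of the 10 promoters in any list, against 22.8% of all promoters and 32.6% of CpG-dense ones in the unified list, and 18.6% (control), 18.2% (run 1) and 16.4% (run 2) of all promoters in the lists of single samples. An H3K9me3 peak lay at 1 of 10, Dazl (chr17:50293164-50294164), against 1.86% of all promoters and 1.19% of CpG-dense ones. Only the control without bisulfite called it (1.04% of promoters), and run 1 and run 2 had a peak at none of the 10 (1.14% and 1.7%). Further inside the genes, H3K9me3 peaks were found in Sycp1 (3240 bp wide, starting 6164 bp from the promoter end), Stk31 and Mael.

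**Figure D5:**
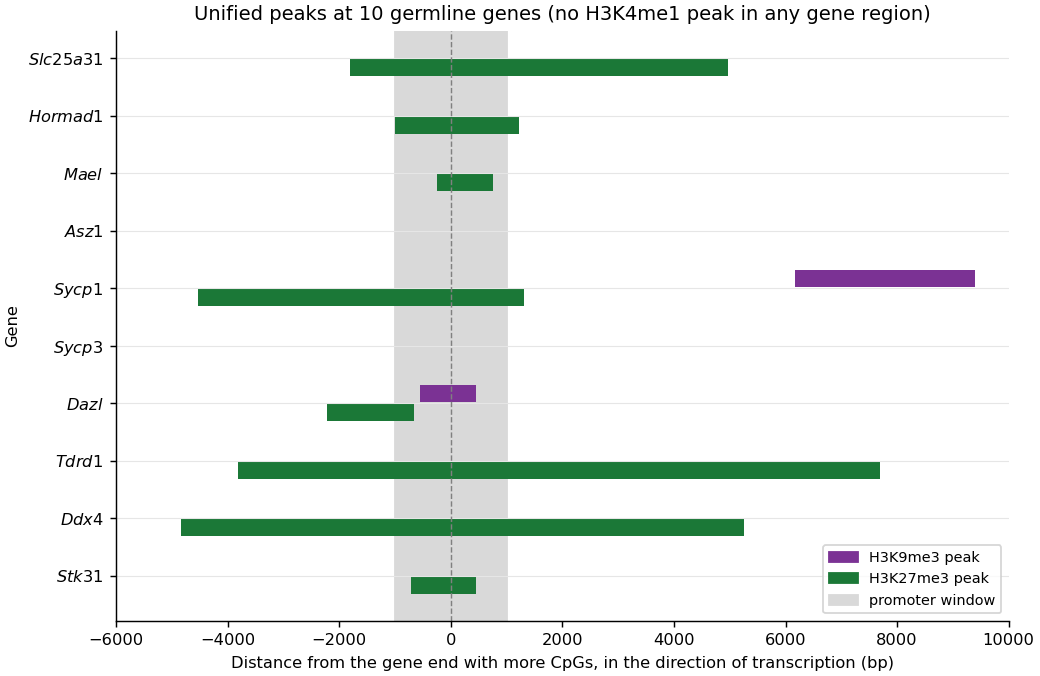
Unified H3K27me3 (green) and H3K9me3 (purple) peaks as bars along the distance from the promoter end (horizontal axis, bp) for each gene (vertical axis), with the promoter window in grey. H3K27me3 peaks cover the start of 7 genes and lie upstream of it at Dazl, where the single promoter H3K9me3 peak sits.

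The number of calls per CpG follows how many fragments the antibody released there. For H3K9me3, 6 of 10 promoters had at least 2 times the calls per CpG of the genome, against 6.28% of all promoters. These were Sycp1 (6.07 times), Dazl (5.52), Mael (3.39), Hormad1 (2.98), Slc25a31 (2.23) and Stk31 (2.11), and only Dazl among them had a promoter peak of that mark. The median of the 10 genes was 2.17 times, against 0.205 over all promoters. For H3K27me3 from 250000 cells, 6 of 10 passed the same level, against 22.9%, with Tdrd1 (13.4 times), Sycp1 (10.2) and Ddx4 (6.64) highest. For H3K4me1 it was 2 of 10, Sycp3 (3.80) and Hormad1 (2.93), against 29.7%.

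Methylation on fragments of different marks was then compared at each promoter with at least 10 calls in both libraries, by the same test. It compares single libraries, not the marks. No listed gene was called in any of the 3 comparisons. For H3K9me3 minus H3K4me1, 0 of 5 genes were called, against 2.59% of 4253 promoters higher and 0.188% lower, and 3 of 5 had an unadjusted p under 0.05 (Dazl, Sycp1 and Stk31). Dazl was 28.0 points higher on H3K9me3 fragments, with an adjusted p of 0.0602. It was called in 6 of the alternative settings, with differences between 28.0 and 50.7 points, among them 47.4 points over the CpGs read in both libraries (adjusted p = 0.00354 by the exact test). These settings reuse the same libraries and are not independent repeats. With runs summed, molecules read in both runs count again. Sycp1 was 24.9 points higher (exact test, adjusted p = 0.265) and Stk31 stood at -21.2 (adjusted p = 0.388).

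For H3K27me3 minus H3K4me1, 0 of 6 were called, against 0.988% of 12347 promoters higher and 0.729% lower. Hormad1, at 19.6 points, passed the adjusted p (0.0468) but not the 20 points, and Sycp3, at 20.5 points, passed the 20 points but not the adjusted p (0.0758). For H3K27me3 minus H3K9me3, 0 of 8 were called, against 0.269% of 4467 promoters higher and 2.44% lower. The widest gap was Mael, 53.3% against 33.3% (adjusted p = 0.12 by the exact test), and Dazl stood at -11.1 points (adjusted p = 0.407). That Dazl difference came to 0.0265 points when only CpGs read in both libraries were used. It thus depended on which CpGs of the window were counted.

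Other germline genes covered the whole range of levels. Of 43 other germline genes, 40 had at least 10 calls in the H3K27me3 library from 250000 cells, with a median promoter level of 35.2%. Of these, 16 were at 50% or more, against 17.6% of all promoters and 1.68% of CpG-dense ones. The other germline genes under 20% numbered 13, while 8.99% of CpG-dense promoters were at 20% or more. The highest with at least 20 calls were Fkbp6 (100% of 30 calls), Tdrd7 (91.5% of 130) and Tuba3b (90.5%), and the lowest Syce2 (0 of 136, which allows up to 2.21%), Msh5 (2.67% of 337) and Boll (5.44% of 2721). The windows of Fkbp6, Tdrd7 and Tuba3b held 27, 39 and 42 CpGs, against a median of 61 over all promoters. Whether they lie on the side of the annotated start was not checked singly, so they may not be promoters. Unified peaks lay at 30 of the 43 for H3K27me3 (29.4% of all promoters), 11 for H3K4me1 (22.8%) and 3 for H3K9me3 (1.86%). The H3K4me1 count is near its background, and its difference from the 10 listed genes was not tested. Of 19 factors known to silence germline genes, 15 had enough calls, and 14 of these lay under 20%, with a median of 1.67%. That count is near the background, since only 8.99% of CpG-dense promoters were at 20% or more. The highest of the factors was Dnmt3l, a cofactor of the de novo methyltransferases, at 66.2% of 74 calls, followed by Pcgf6 (14.6% of 41) and Dnmt3b (14.4% of 1671).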

How the data were processed

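Methylated and total counts of calls per CpG and library, as the authors deposited them, were used as raw counts without normalization, and peak lists as positions only. The submitters' processing notes name cutadapt 1.12, Bismark 0.23.0, Bowtie2 2.3.0, HOMER 4.10.3, bedtools 2.29.2 and build mm10, with no role. The treatment of duplicate reads is not given in the sources used here, and amplified copies would narrow the intervals and make the p-values too small. All 238 CpGs of the listed genes' RefSeq promoter sequences were in the table.

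A level is methylated over all calls summed over a window, given with a 95% Wilson interval, and at least 10 calls were required for counts and tests. Fisher's exact test (scipy 1.17.1, Python 3.11.15) was adjusted by Benjamini-Hochberg over all promoters and was tested on simulated data. The simulated calls were independent, so that check does not cover calls of one fragment or amplified copies. A promoter with at least 50 CpGs is called CpG-dense. A peak overlapped by 1 bp. Genes were placed with RefSeq (GRCm38.p6). All 10 listed genes are named. From the lists of other germline genes and of silencing factors, at most the 3 highest and 3 lowest with at least 20 calls are named. Stem cell genes and genes of other cells were read as a check, and Esrrb was named after its value was seen. The members and lists were chosen with earlier results of these data known. Exons and introns were not used here.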

Additional observations from a re-analysis of the deposited data

How the results depend on the processing

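Each value rests on 1 library, so differences between cultures could not be measured, and thin promoters (Asz1, and most genes for H3K4me1) are limited by depth. No paired analysis was possible because the shared run numbers of H3K4me1 and H3K9me3 mark sequencing runs of 1 library each and no result comes from a replicate test. Of the member differences recomputed under the alternatives, 169 kept direction and side of the threshold, 16 gained the threshold, 2 lost it and 15 turned. Of the member levels, 115 moved by less than their interval and 24 by more. The cause was not tested.

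The level summed over the 10 genes for H3K27me3, 41.4%, was 39.5% with 500 bp windows, 46.0% with 2000 bp, 43.2% from 100000 cells, 40% from 20000 and 46.3% as a mean of CpG levels, and for H3K9me3, 47.1%, it was 51.5% with 500 bp. At an 80% threshold 0 genes counted as methylated for H3K9me3 and for H3K27me3, and with run 1 the count was 1 for H3K4me1. In the list of the deepest bisulfite library, an alternative chosen after seeing the data, 0 genes had an H3K9me3 promoter peak.

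Members called are given with the members tested and the share of all promoters called in either direction. For H3K9me3 minus H3K4me1, Dazl alone was called, and it was higher. It was 1 of 5 with 500 bp (1.63% of all promoters), 2000 bp (9.36%) or runs summed (4.42%). It was 1 of 4 with at least 20 calls (4.81%), run 1 (2.61%) or shared CpGs (1.41%). For H3K27me3 minus H3K4me1, 4 of 6 were higher with 2000 bp (Dazl, Sycp3, Hormad1, Tdrd1), against 6.71%. With no minimum difference it was 1 of 6 (Hormad1), against 5.05%. For H3K27me3 minus H3K9me3, 1 of 8 was higher with runs summed (Mael), against 3.35%. From 100000 cells 2 of 8 were higher (Mael, Stk31), against 2.67%, and with run 1, 1 of 6 was lower (Dazl), against 3.48%. For promoter minus rest with 500 bp, 7 of 10 were called, against 75.3%, and 1 of them was higher. That gene was Sycp3, which was not tested with the main window and whose rest of the gene held few calls. From 20000 cells 3 of 5 were lower, against 73.5%.

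Over all promoters, H3K9me3 minus H3K4me1 called higher and lower 49 and 2 (500 bp), 430 and 79 (2000 bp), 38 and 0 (run 1), 222 and 24 (runs summed), and 35 and 1 (shared CpGs). H3K27me3 minus H3K4me1 gave 27 and 29, 601 and 312, and 52 and 49 for the first 3 settings, 211 higher (runs summed), 70 higher (20000 cells), 19 and 19 (shared CpGs), and 239 and 385 (no minimum). H3K27me3 minus H3K9me3 gave 3 and 44, 65 and 354, and 3 and 55, then 174 lower (runs summed), 66 lower (20000 cells), and 0 and 48 (shared CpGs). Promoter minus rest gave 259 and 4629 from 20000 cells.

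Directions that turned, in points: with 500 bp, Dazl promoter minus rest 7.37. With 2000 bp, H3K27me3 minus H3K9me3 was 5.93 at Dazl and 0.188 at Slc25a31. With run 1, Stk31 was 18.97 (H3K9me3 minus H3K4me1), 4.35 (H3K27me3 minus H3K4me1) and -14.6 (H3K27me3 minus H3K9me3), Tdrd1 -4.55 (H3K27me3 minus H3K4me1) and Ddx4 8.52 (H3K27me3 minus H3K9me3). With runs summed, Slc25a31 was 0.683 (H3K27me3 minus H3K9me3). From 100000 cells, Stk31 was 4.02 (H3K27me3 minus H3K4me1). From 20000 cells, Slc25a31 was 18.2 (H3K27me3 minus H3K9me3) and 3.86 (promoter minus rest), and Sycp1 0.548 (promoter minus rest). On shared CpGs, Dazl was -1.49 (H3K27me3 minus H3K4me1) and 0.0265 (H3K27me3 minus H3K9me3).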

Other observations

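A second H3K27me3 peak, 17219 bp wide, overlapped the far end of Tdrd1 (chr19:56866214-56883432). It began inside the gene, which ends at 56870012, but most of it lay beyond the gene and beyond the 2000 bp flank. It was wider than the 11508 bp peak at its promoter. Peaks there were called from 20000, 100000 and 250000 cells and in the control without bisulfite.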
